A study of Mus musculus with 54 samples.

Results

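The genes described here are 10 negative regulators of the MAP kinase pathways: the dual-specificity phosphatase genes Dusp1, Dusp2, Dusp4, Dusp5, Dusp6, Dusp10 and Dusp14, and the Sprouty family genes Spry1, Spry2 and Spred1. They were listed by name, without a threshold on any measured value and without the other genes of these families, and they are 10 of the 55385 genes in each of the 2 count tables of the series. All 10 had enough reads to be tested in both tables.

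The MAP kinases ERK, JNK and p38 are switched on by phosphorylation of a threonine and a tyrosine, and dual-specificity phosphatases remove both phosphates. Several of these phosphatase genes are themselves transcribed when ERK is active, which makes them part of a negative feedback loop and a readout of past signaling. Sprouty and Spred proteins act further up, between receptors, RAS and RAF. In T cells the adaptor LAT carries the signal of the T cell antigen receptor (TCR) to phospholipase C and RAS, and CD5 and CD6 are related surface receptors that modulate TCR signaling.

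RNA sequencing was performed on naive CD4+ T cells from pooled lymph nodes and spleens of adult C57BL/6 background mice, in 2 experiments of 36 and 18 libraries. In the CD5/CD6 experiment (experiment I), WT, CD5KO (Cd5-/-), CD6KO (Cd6-/-) and dKO (Cd5-/-Cd6-/-) cells were enriched with a magnetic kit. The dKO mice carried 1 deletion that reaches from the 5′ end of Cd5 into Cd6. In the LAT experiment (experiment II), both groups came from Lat fl-dtr mice and were separated on a cell sorter. These mice express Cre in mature T cells (maT-Cre), in which deletion of Lat goes with loss of the human diphtheria toxin receptor (hDTR). The WT cells were hDTR+ and the LatKO (Lat-/-) cells hDTR-, so these WT cells carried the floxed reporter allele too and the LatKO cells developed with LAT until they were mature. Cells were left unstimulated (0 h) or were stimulated for 4 or 20 h with plate-bound anti-CD3 at 3 µg/ml and soluble anti-CD28 at 1 µg/ml, with 3 libraries for each genotype and time. The study describes the samples of a condition as independent preparations. Whether they came from separate animals is not given in the sources used here, so the p-values below measure the spread between these libraries.

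The libraries held 20554354 to 45222554 counted reads in the CD5/CD6 experiment and 17784644 to 28501095 in the LAT experiment. The removed gene was lower than in WT where the labels called for it with 2 exceptions, though by different degrees. Lat ranged from 92.2 to 350.8 CPM (the reads of a gene relative to the reads of its library, with the library size scaled by TMM) in WT and from 5.69 to 19.1 CPM in LatKO libraries. In LatKO cells it was lowest in library 2 and highest in library 3 at each of the 3 times, and which part of Lat the remaining reads cover was not analyzed here. Cd5 and Cd6 reached at most 0.663 and 0.652 CPM in dKO libraries. More RNA remained in the single knockouts. Apart from the 2 exceptions, Cd5 was at 11.4 to 150 CPM in CD5KO and Cd6 at 230 to 349 CPM in CD6KO libraries. WT libraries of that experiment held Cd5 at 602 to 1684 CPM and Cd6 at 600 to 1131 CPM. At 0 h, the library labelled CD5KO 2 held Cd5 at 719 CPM and Cd6 at 329 CPM, and the library labelled CD6KO 2 held Cd5 at 172 CPM and Cd6 at 1203 CPM, which goes against both labels. No library was reassigned, and the results of CD5KO and CD6KO cells that use these 2 libraries are given with and without them. The 6 T cell markers (Cd3d, Cd3e, Cd3g, Cd4, Trac and Trbc2) summed to between 2878.5 and 8212 CPM, and the 6 B cell markers to at most 4.83 CPM in the sorted LAT libraries and to 65.9 to 584 CPM in the 0 h libraries of the CD5/CD6 experiment.

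Promoter stretches are printed as examples for Dusp1, Dusp2, Dusp5 and Spry1. Dusp2, Dusp5 and Spry1 peaked at 4 h of stimulation and Dusp1 fell, as described further down. These courses do not set the printed genes apart, since Spred1 peaked at 4 h and Dusp10 fell as well. All motif matches found lay in Dusp1, Dusp2 and Dusp5. The printed stretches are the reference bases before each gene's own exon (RefSeq, GRCm38.p6), 5′ to 3′ on the strand of the gene, on chr17:26508520-26508722 (minus strand), chr2:127335909-127336158 (plus), chr19:53528895-53529108 (plus) and chr3:37639697-37639946 (plus) in that order. Capitals mark matches to the motifs searched for on both strands.
Dusp1: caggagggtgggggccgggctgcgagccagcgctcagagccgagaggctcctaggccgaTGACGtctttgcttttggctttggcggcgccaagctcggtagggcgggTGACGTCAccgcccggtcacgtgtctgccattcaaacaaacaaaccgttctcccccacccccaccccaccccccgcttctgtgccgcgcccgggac
Dusp2: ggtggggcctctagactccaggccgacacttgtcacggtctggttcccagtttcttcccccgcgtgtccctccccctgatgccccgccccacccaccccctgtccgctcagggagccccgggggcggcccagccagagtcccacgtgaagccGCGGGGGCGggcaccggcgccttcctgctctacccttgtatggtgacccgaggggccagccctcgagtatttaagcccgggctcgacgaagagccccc
Dusp5: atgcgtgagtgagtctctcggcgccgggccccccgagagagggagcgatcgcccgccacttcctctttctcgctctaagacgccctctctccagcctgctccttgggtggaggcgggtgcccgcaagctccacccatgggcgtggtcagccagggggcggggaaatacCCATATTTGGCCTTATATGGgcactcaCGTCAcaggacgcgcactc
Spry1: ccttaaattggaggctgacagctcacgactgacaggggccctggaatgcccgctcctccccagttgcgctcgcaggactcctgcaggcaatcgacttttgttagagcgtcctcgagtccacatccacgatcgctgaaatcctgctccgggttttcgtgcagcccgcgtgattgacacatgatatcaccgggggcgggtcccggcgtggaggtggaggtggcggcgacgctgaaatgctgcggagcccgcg

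The cyclic AMP response element (CRE), TGACGTCA, was present in 1.79% of 32851 RefSeq promoter windows of 300 bases. Of the 9 genes with a window (Dusp4 had none), Dusp1 held it, at bases -143 to -136 from the start. Its core alone, TGACG, was in 20.8% of windows and lies inside the CRE on both strands. Dusp1 held a further copy at -191 to -187, and Dusp5 a reverse-strand copy at -55 to -51. Dusp2 also had a copy, at bases 5 to 9 past the start, outside the printed stretch. An EGR motif (GCGGGGGCG or GCGTGGGCG, 3.47% of windows) was found in Dusp2 at -98 to -90. The CArG box, the motif of serum response factor (1.63% of windows), occurred 2 times in Dusp5, at -82 to -73 and -72 to -63. The AP-1 motif (TGACTCA or TGAGTCA, 5.2% of windows) and the ETS core (CCGGAAG, 8.86%) matched none of the 9, and the Spry1 stretch held no match to any motif searched. These are matches of letters in a window, not measured binding.

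The course of the 10 genes was first followed in WT cells, where the order of levels per kilobase of exon changed with time. At 0 h in the LAT experiment, Dusp2 stood highest at 111 ± 13.3 CPM per kilobase (mean ± SD, n = 3), followed by Dusp1 at 48.7 ± 22.2, Dusp10 at 32.7 ± 2.48, Dusp5 at 23.7 ± 4.37 and Dusp6 at 17.1 ± 3.80 CPM per kilobase. Of these 5, the libraries of Dusp1 overlapped those of Dusp10 and of Dusp5, and no other pair overlapped. Spry1, Spred1 and Dusp4 followed at 2.09, 1.54 and 1.43 CPM per kilobase with overlapping libraries, Spry2 at 0.477 overlapped Dusp4, and Dusp14 was near the limit of detection at 0.0318. After 4 h the order began with Dusp2 at 567 ± 55.3 and Spry1 at 241 ± 40.1 CPM per kilobase, with no overlap between them or with Dusp5 at 94.2 ± 19.0. At 20 h Dusp2 was again highest at 138 ± 1.54 CPM per kilobase, and Spry1, Dusp4 and Dusp5, at 57.4, 50.1 and 49.3, overlapped from one to the next. The CD5/CD6 experiment gave the same leading pair at 4 h, Dusp2 at 546 ± 35.0 and Spry1 at 248 ± 15.8 CPM per kilobase, and its 0 h order was also headed by Dusp2, at 140 ± 12.7, which overlapped Dusp1 at 88.5 ± 58.0.

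Counts were compared with edgeR's quasi-likelihood test, and a gene is said to rise or fall when its fold change was above 2 with a Benjamini-Hochberg adjusted p below 0.05 over all genes tested (27780 in the LAT and 32290 in the CD5/CD6 experiment). This fit kept every gene with a read, and in the LAT experiment it gave genes of like abundance 1 common spread. For Spry1, Dusp4, Dusp1 and Dusp6 the standard error (SE) of the log2 fold change was 3.11, 2.76, 2.05 and 1.82 times as high when genes of low count were left out first (filterByExpr). In the CD5/CD6 experiment the SE of Dusp1, Dusp5, Dusp4 and Dusp6 was 1.504, 1.483, 1.321 and 1.298 times as high in that fit. The adjusted p of that stricter fit is therefore printed as the stricter adjusted p, after the main one. Of the 27780 and 32290 genes tested, filterByExpr left 13928 and 16143. Shares and medians over all genes tested thus include many genes with few reads, which are hard to call. Values per library are CPM in the order of libraries 1, 2 and 3, and gene positions are those of GRCm38.

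Stimulated experiment II WT cells showed 7 genes higher and 1 lower at 4 h than at 0 h, where 17.3% of all genes tested were called. At 20 h, 5 were higher and 2 lower than at 0 h (23.5% of all genes), and between 4 and 20 h 1 was higher and 6 were lower (17.2%). The median log2 fold change of the 10 genes was 2.17 at 4 h and 1.01 at 20 h, against 0 over all genes tested at both times. Experiment I WT cells had 6 higher and 2 lower at 4 h (19.3% of all genes), 4 higher and 3 lower at 20 h (29.6%), and 1 higher and 5 lower between 4 and 20 h (21%). Scaling by library totals alone shifted the members' 4 h log2 fold changes in WT cells by a median of -0.2453 (LAT) and -0.247 (CD5/CD6). Over all genes it lowered the higher share of the 4 h calls from 46.4% to 32.9% in the LAT and from 42.6% to 30.6% in the CD5/CD6 experiment, and raised that of the 20 against 4 h calls in the LAT experiment from 45.9% to 56.7%.

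Spry1 (chr3:37639947-37644598, plus strand), an inhibitor of the path from receptors to RAS and ERK, had the steepest early rise. In experiment II WT cells it went from 5.37, 5.00 and 7.81 CPM at 0 h to 812, 706 and 579 CPM at 4 h, and stood at 149, 166 and 186 CPM at 20 h. The 3 times did not overlap, and the 20 h libraries lay between the other 2 times. The log2 fold change was 6.84 (SE 0.195) at 4 h (edgeR adjusted p = 5.88e-266, stricter adjusted p = 2.13e-08) and 4.78 (SE 0.179) at 20 h (edgeR adjusted p = 3.6e-154, stricter adjusted p = 4.68e-07). In experiment I WT cells the levels were 7.61, 4.91 and 5.60 CPM, then 767, 717 and 675 CPM, then 145, 188 and 173 CPM. Spry1 shares 710 of its 2906 exon bases (24.4%) with the antisense gene Gm42922, which had at most 21 reads in a library. Whether reads were counted by strand is not given in the sources used here, and without strand the reads of the pair cannot be told apart.

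Spred1 (chr2:117121374-117182279, plus strand), which brings the RAS GTPase activator neurofibromin to the membrane, followed the same course at lower levels. It was at 8.86, 8.22 and 14.4 CPM at 0 h, 133, 160 and 93.8 CPM at 4 h and 40.2, 43.0 and 35.1 CPM at 20 h in experiment II WT cells, without overlap between times. It rose with a log2 fold change of 3.62 (SE 0.182) at 4 h (edgeR adjusted p = 4.16e-85, stricter adjusted p = 8.34e-10). By 20 h it had fallen from its 4 h level with a log2 fold change of -1.71 (SE 0.167, edgeR adjusted p = 5.34e-23, stricter adjusted p = 3.33e-06). Its values in the CD5/CD6 experiment, 16.3 ± 2.97, 162 ± 12.3 and 59.2 ± 4.44 CPM (n = 3), had the same order of times.

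Spry2 (chr14:105891947-105896819, minus strand), the closest relative of Spry1 in the set, stayed low. The WT libraries of experiment II held 1.84, 0.827 and 0.315 CPM at 0 h, 2.66, 2.66 and 1.09 CPM at 4 h and 0.514, 0.737 and 0.795 CPM at 20 h. The 0 and 4 h libraries overlapped, and the log2 fold change of 1.10 (SE 0.503) at 4 h missed the threshold (edgeR adjusted p = 0.0908, stricter adjusted p = 0.136). From 4 to 20 h Spry2 fell, with a log2 fold change of -1.63 (SE 0.519, edgeR adjusted p = 0.00707, stricter adjusted p = 0.0361), and without replicate 1 this call was lost (-1.21, edgeR adjusted p = 0.211). It was higher in the magnetically enriched WT cells, at 4.51 ± 1.72, 6.05 ± 0.268 and 1.20 ± 0.362 CPM (n = 3) at 0, 4 and 20 h, where it fell from 0 to 20 h with a log2 fold change of -1.92 (SE 0.343, edgeR adjusted p = 2.03e-06, stricter adjusted p = 0.00011).

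Dusp2 (chr2:127336159-127338376, plus strand), a nuclear phosphatase of ERK and p38 that is abundant in activated lymphocytes, peaked at 4 h. It was at 198, 216 and 251 CPM at 0 h, 1258, 1110 and 1041 CPM at 4 h and 274, 274 and 279 CPM at 20 h in experiment II WT cells. All 4 h libraries lay far above the others, and the 0 and 20 h libraries lay side by side. The log2 fold change was 2.36 (SE 0.155) at 4 h (edgeR adjusted p = 1.51e-50, stricter adjusted p = 3.04e-09) and 0.31 (SE 0.147) at 20 h (edgeR adjusted p = 0.0877, stricter adjusted p = 0.11). The same peak was measured in the CD5/CD6 experiment, at 280 ± 25.5, 1093.5 ± 70.1 and 270 ± 40.5 CPM (n = 3).

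Dusp4 (chr8:34807297-34819894, plus strand), a nuclear phosphatase of ERK, JNK and p38, rose by 4 h and kept its level. It was at 4.78, 1.45 and 5.50 CPM at 0 h, 113, 146 and 111 CPM at 4 h and 139, 131 and 142 CPM at 20 h in experiment II WT cells. Both stimulated times were above every 0 h library and overlapped each other. The log2 fold change was 4.96 (SE 0.192) at 4 h (edgeR adjusted p = 3.96e-145, stricter adjusted p = 2.13e-07), and between 4 and 20 h it was 0.16 (SE 0.156, edgeR adjusted p = 0.554, stricter adjusted p = 0.804). In experiment I the 20 against 4 h value was -0.07 (SE 0.232) and changed sign to 0.037 with library totals.

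Dusp5 (chr19:53529109-53542431, plus strand), a nuclear phosphatase specific for ERK, rose about as early and fell back in part. The WT libraries of experiment II held 49.6, 55.7 and 70.6 CPM at 0 h, 261, 259 and 179 CPM at 4 h and 131, 122 and 113 CPM at 20 h. The 3 times did not overlap, and the log2 fold change was 1.99 (SE 0.156) at 4 h (edgeR adjusted p = 1.53e-35, stricter adjusted p = 2.27e-07) and 1.06 (SE 0.152) at 20 h (edgeR adjusted p = 3.72e-11, stricter adjusted p = 0.000209). The 20 h call was lost without replicate 1 (0.92) and without replicate 2 (0.97), both under a fold of 2. In experiment I the 4 h rise was not called, at 0.85 (SE 0.332, edgeR adjusted p = 0.043, stricter adjusted p = 0.138), with 0 h libraries at 210, 74.7 and 59.2 CPM and 4 h libraries at 203, 223 and 196 CPM. There the first 0 h library stood inside the 4 h range, without replicate 1 the value was 1.64 (edgeR adjusted p = 4.88e-12), and with replicate number as a block it was 1.02 (edgeR adjusted p = 0.0026). Dusp5 shares 547 of 2473 exon bases (22.1%) with the antisense gene AC137853.2, which had at most 29 reads in a library.

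Dusp6 (chr10:99263231-99267489, plus strand), the cytoplasmic phosphatase specific for ERK, had a flatter course. It was at 59.8, 39.8 and 61.0 CPM at 0 h, 133, 142 and 115 CPM at 4 h and 97.1, 119 and 99.2 CPM at 20 h in experiment II WT cells. The stimulated libraries all lay above the unstimulated ones, with a log2 fold change of 1.28 (SE 0.156) at 4 h (edgeR adjusted p = 3.84e-15, stricter adjusted p = 0.000627). At 20 h the value was 0.97 (SE 0.155, edgeR adjusted p = 2.69e-09, stricter adjusted p = 0.00511), under the fold of 2, and DESeq2 placed it just above, at 1.03. In experiment I, Dusp6 rose by 1.23 (SE 0.221) at 4 h (edgeR adjusted p = 3.14e-06, stricter adjusted p = 0.000516), which was 0.98 with library totals.

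Dusp1 (chr17:26505590-26562128, minus strand), a nuclear phosphatase of p38, JNK and ERK and a classical immediate early gene, fell with time. The WT libraries of experiment II held 182, 79.8 and 222 CPM at 0 h, 68.8, 74.2 and 84.6 CPM at 4 h and 14.1, 14.3 and 13.0 CPM at 20 h. The 0 and 4 h libraries overlapped through library 2, and the 20 h libraries were below all others. The log2 fold change was -1.09 (SE 0.153) at 4 h (edgeR adjusted p = 1.55e-11, stricter adjusted p = 0.00708) and -3.55 (SE 0.170) at 20 h (edgeR adjusted p = 1.01e-94, stricter adjusted p = 5.43e-08). The 4 h call was lost without replicate 1 (-0.97) and without replicate 3 (-0.88), both under a fold of 2. In experiment I, Dusp1 stood at 508, 234 and 138 CPM at 0 h and fell to 54.9 ± 7.19 CPM at 4 h and 10.9 ± 0.664 CPM at 20 h (n = 3).

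Dusp10 (chr1:184013302-184075636, plus strand), a phosphatase of JNK and p38 with little activity toward ERK, also fell. It was at 95.1, 95.2 and 108 CPM at 0 h, 68.6, 69.9 and 98.3 CPM at 4 h and 25.9, 27.9 and 28.1 CPM at 20 h in experiment II WT cells. The 0 and 4 h libraries overlapped, and the 20 h libraries were lowest. The log2 fold change was -0.33 (SE 0.150) at 4 h (edgeR adjusted p = 0.084, stricter adjusted p = 0.0487) and -1.87 (SE 0.156) at 20 h (edgeR adjusted p = 1.94e-31, stricter adjusted p = 1.55e-09). In experiment I it had fallen already by 4 h, from 140, 88.9 and 94.4 CPM to 28.0, 48.0 and 51.2 CPM, with a log2 fold change of -1.35 (SE 0.222, edgeR adjusted p = 4.79e-07, stricter adjusted p = 0.000177) that was -0.89 without replicate 1.

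Dusp14 (chr11:84048041-84069261, minus strand), an atypical dual-specificity phosphatase reported to bind CD28, was the only 1 of the 10 called higher at 20 h than at 4 h in WT cells of both experiments. Its reads were 1, 1 and 3 at 0 h, 17, 23 and 46 at 4 h and 86, 140 and 118 at 20 h in the LAT experiment, which is 1.19 ± 0.486 CPM at 4 h and 4.68 ± 0.870 CPM at 20 h (n = 3). The 3 times did not overlap. With so few reads at 0 h, the summed reads gave a rate 19.3 times as high at 4 h as at 0 h (95% interval 7.96 to 61.0, exact conditional, counting error only) and 73.6 times as high at 20 h (31.2 to 228). In experiment I these ratios were 13.3 (6.21 to 34.1) and 60.5 (29.1 to 151.5).

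Sums of cell type markers moved with time in the magnetically enriched cells. The 6 B cell markers summed to 36.2 to 196 CPM at 4 h and 1.27 to 4.77 CPM at 20 h in the CD5/CD6 experiment, from 65.9 to 584 CPM at 0 h, with all 6 detected in every 0 and 4 h library and up to 3 at 0 in a 20 h library. The 7 myeloid markers summed to 113 to 595 CPM at 0 h and 56.5 to 95.7 CPM at 20 h, and the 3 natural killer markers to 5.11 to 39.3 CPM and 0 to 0.928 CPM. In the LAT experiment up to 4 of the 6 B cell markers had no read in a library and their sum stayed between 0.538 and 4.83 CPM. The 7 myeloid markers summed there to 67.8 to 127 CPM at 0 h, 63.0 to 81.7 CPM at 4 h and 68.6 to 95.9 CPM at 20 h. Dusp1, Dusp4, Dusp5, Dusp6 and Dusp10 were highest in library 1 of all 4 genotypes at 0 h in the CD5/CD6 experiment. The part of composition and of library number in the courses was not tested. In bulk RNA, fewer cells of a type and less RNA per cell cannot be told apart.

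Cells without LAT were compared with WT cells to ask which of these responses depend on the adaptor. At 4 h, 1 of the 10 genes was higher and 6 were lower in LatKO than in WT cells (11.7% of all genes were called, 5.51% higher and 6.23% lower), and at 20 h 1 was higher and 7 were lower (24.4%, 12.1% higher and 12.3% lower). The median log2 difference of the 10 genes was -1.64 at 4 h and -1.88 at 20 h, against 0 over all genes tested at both times. Before stimulation 2 were called lower (0.961% of all genes), and neither call held in the stricter fit. Within LatKO cells, 6 genes rose and 1 fell at 4 h (6.7% of all genes), 3 were higher and 1 lower at 20 h than at 0 h (4.21%), and 8 fell from 4 to 20 h (4.1%). The response itself differed from that of WT cells for 4 genes at 4 h (8.71% of all genes) and for 6 at 20 h (19.5%). Scaling by library totals shifted the median of all genes for this 4 h difference by 0.1015, turned the higher share of its calls from 50.1% to 64.2%, and left the 4 members called.

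**Figure D1:**
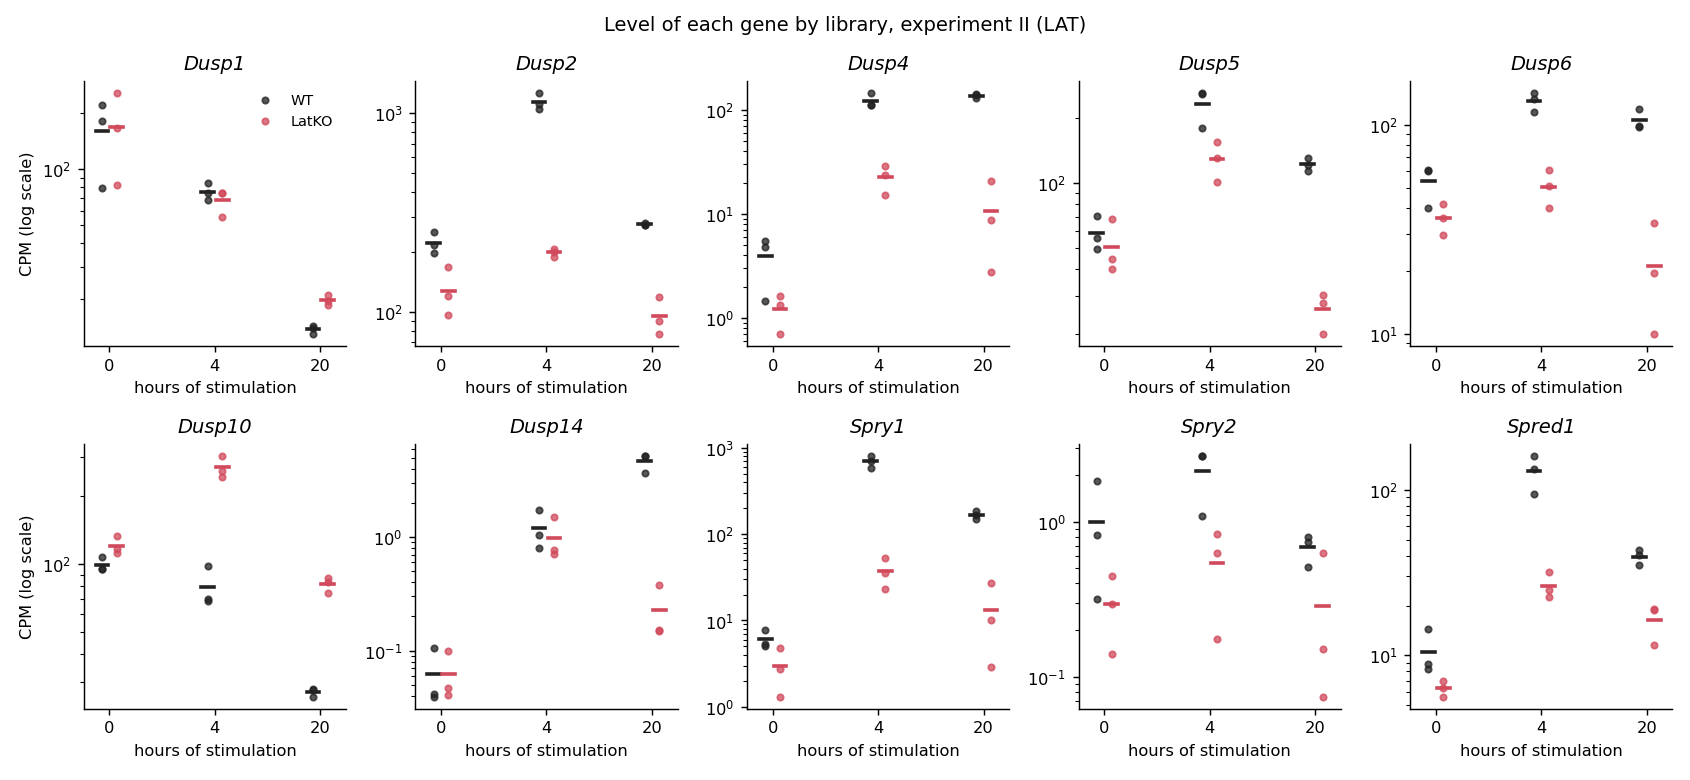
Level of each of the 10 genes in CPM (log axis) by hours of stimulation in the LAT experiment. Each point is 1 library, short bars are means of 3, WT is black and LatKO red. Spry1, Dusp4, Dusp2 and Spred1 are lower in every LatKO library than in any WT library at 4 and 20 h, and Dusp10 is higher.

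Spry1 showed the widest gap at 4 h. LatKO libraries held 2.76, 1.31 and 4.76 CPM at 0 h, 35.6, 23.1 and 53.3 CPM at 4 h and 10.1, 2.89 and 27.0 CPM at 20 h. All LatKO libraries were below all WT libraries at each of the 3 times, and Spry1 was still induced in LatKO cells at 4 h, with a log2 fold change of 3.65 (SE 0.180, edgeR adjusted p = 5.84e-88, stricter adjusted p = 7.4e-05). The WT mean was 18.7 times the LatKO mean at 4 h and 12.5 times at 20 h, with log2 differences of -4.23 (SE 0.170, edgeR adjusted p = 6.23e-132, stricter adjusted p = 3.21e-06) and -3.65 (SE 0.168, edgeR adjusted p = 3.75e-102, stricter adjusted p = 5.41e-06). The response was smaller in LatKO cells by -3.20 (SE 0.240) at 4 h (edgeR adjusted p = 3.98e-37, stricter adjusted p = 0.00323) and by -2.62 (SE 0.241) at 20 h (edgeR adjusted p = 7.61e-26, stricter adjusted p = 0.00662). Before stimulation the difference of -1.03 (SE 0.181) was called in the main fit (edgeR adjusted p = 3.5e-06) but not in the stricter fit (adjusted p = 0.693) or by DESeq2 (adjusted p = 0.678).

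Spred1 was lower in LatKO cells too. LatKO libraries were at 5.63, 7.04 and 6.38 CPM at 0 h, 31.7, 24.8 and 22.6 CPM at 4 h and 18.9, 11.5 and 19.0 CPM at 20 h, below WT libraries at all times. The log2 difference from WT was -2.29 (SE 0.171) at 4 h (edgeR adjusted p = 1.86e-38, stricter adjusted p = 3.01e-07) and -1.26 (SE 0.169) at 20 h (edgeR adjusted p = 6.4e-13, stricter adjusted p = 8.37e-05), and the latter was -0.94 without replicate 2, under a fold of 2. The 4 h response differed by -1.56 (SE 0.244, edgeR adjusted p = 6.11e-09, stricter adjusted p = 0.00154). The 20 h response differed by -0.54 (SE 0.244, edgeR adjusted p = 0.0939, stricter adjusted p = 0.185). Spry2 had only 2 to 20 reads per LatKO library, and its difference from WT at 4 h, -1.93 (SE 0.536, edgeR adjusted p = 0.00203, stricter adjusted p = 0.0235), was -1.32 without replicate 2 (edgeR adjusted p = 0.0752).

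The 4 h response of Dusp2 was smaller without LAT. LatKO libraries held 119, 95.9 and 168 CPM at 0 h, 189, 208 and 201 CPM at 4 h and 77.2, 89.4 and 118 CPM at 20 h, below the WT libraries at each time. At 4 h the value was 0.64 (SE 0.148) above 0 h on the log2 scale in LatKO cells (edgeR adjusted p = 0.000241, stricter adjusted p = 0.00653), under the fold of 2. The WT mean was 5.71 times the LatKO mean at 4 h, a log2 difference of -2.51 (SE 0.156, edgeR adjusted p = 4.44e-56, stricter adjusted p = 7.05e-09), and the 4 h response differed by -1.72 (SE 0.210, edgeR adjusted p = 3.2e-14, stricter adjusted p = 4.76e-05). At 20 h Dusp2 was lower by -1.54 (SE 0.151, edgeR adjusted p = 4.14e-23, stricter adjusted p = 3.18e-07). Unstimulated LatKO cells already differed by -0.79 (SE 0.149, edgeR adjusted p = 1.99e-05, stricter adjusted p = 0.0275), under the fold of 2.

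Dusp4, Dusp5 and Dusp6 were lower in LatKO than in WT cells at 20 h. Dusp4 was at 1.33, 0.699 and 1.63 CPM at 0 h, 24.0, 15.1 and 29.2 CPM at 4 h and 8.85, 2.78 and 20.6 CPM at 20 h in LatKO libraries, so it was induced at 4 h with a log2 fold change of 4.21 (SE 0.208, edgeR adjusted p = 7.64e-88, stricter adjusted p = 2.21e-05) but lay under every WT library at 4 and 20 h. The log2 difference from WT was -2.43 (SE 0.167) at 4 h (edgeR adjusted p = 1.16e-45, stricter adjusted p = 0.000242) and -3.68 (SE 0.177) at 20 h (edgeR adjusted p = 2.6e-93, stricter adjusted p = 2.17e-06), where the WT mean was 12.8 times the LatKO mean. Its 20 h response differed by -2.01 (SE 0.282, edgeR adjusted p = 1.77e-11, stricter adjusted p = 0.0372), and its 4 h response by -0.76 (SE 0.277, edgeR adjusted p = 0.0429, stricter adjusted p = 0.489). The 0 h difference of -1.68 (SE 0.217, edgeR adjusted p = 6.71e-12) was not called in the stricter fit (adjusted p = 0.317) or by DESeq2 (adjusted p = 0.174), and the 0 h libraries overlapped. The fall of Dusp4 from 4 to 20 h in LatKO cells, -1.09 (SE 0.167, edgeR adjusted p = 4.63e-09), was likewise lost in the stricter fit (adjusted p = 0.102) and by DESeq2 (adjusted p = 0.197).

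Dusp5 in LatKO libraries went from 44.5, 40.1 and 67.9 CPM at 0 h to 131, 154 and 102 CPM at 4 h and to 20.0, 27.9 and 30.2 CPM at 20 h. It was thus below its 0 h level at 20 h, by -0.96 (SE 0.155, edgeR adjusted p = 2.86e-08, stricter adjusted p = 0.00373), just under the fold of 2. At 4 h the difference from WT was -0.85 (SE 0.151, edgeR adjusted p = 1.96e-07, stricter adjusted p = 0.00213), under the fold of 2 with libraries that did not overlap. At 20 h it was -2.22 (SE 0.159, edgeR adjusted p = 4.96e-43, stricter adjusted p = 4.52e-08), and the 20 h response differed by -2.02 (SE 0.217, edgeR adjusted p = 5.08e-19, stricter adjusted p = 1.71e-05). Dusp6 was at 35.9, 29.6 and 41.7 CPM at 0 h, 50.8, 40.1 and 60.8 CPM at 4 h and 19.4, 9.95 and 33.9 CPM at 20 h in LatKO libraries. Its difference from WT was -1.36 (SE 0.157, edgeR adjusted p = 1.2e-16, stricter adjusted p = 0.000595) at 4 h and -2.32 (SE 0.163, edgeR adjusted p = 2.08e-44, stricter adjusted p = 1.32e-06) at 20 h. The 20 h response of Dusp6 differed by -1.74 (SE 0.222, edgeR adjusted p = 1e-13, stricter adjusted p = 0.00137).

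**Figure D2:**
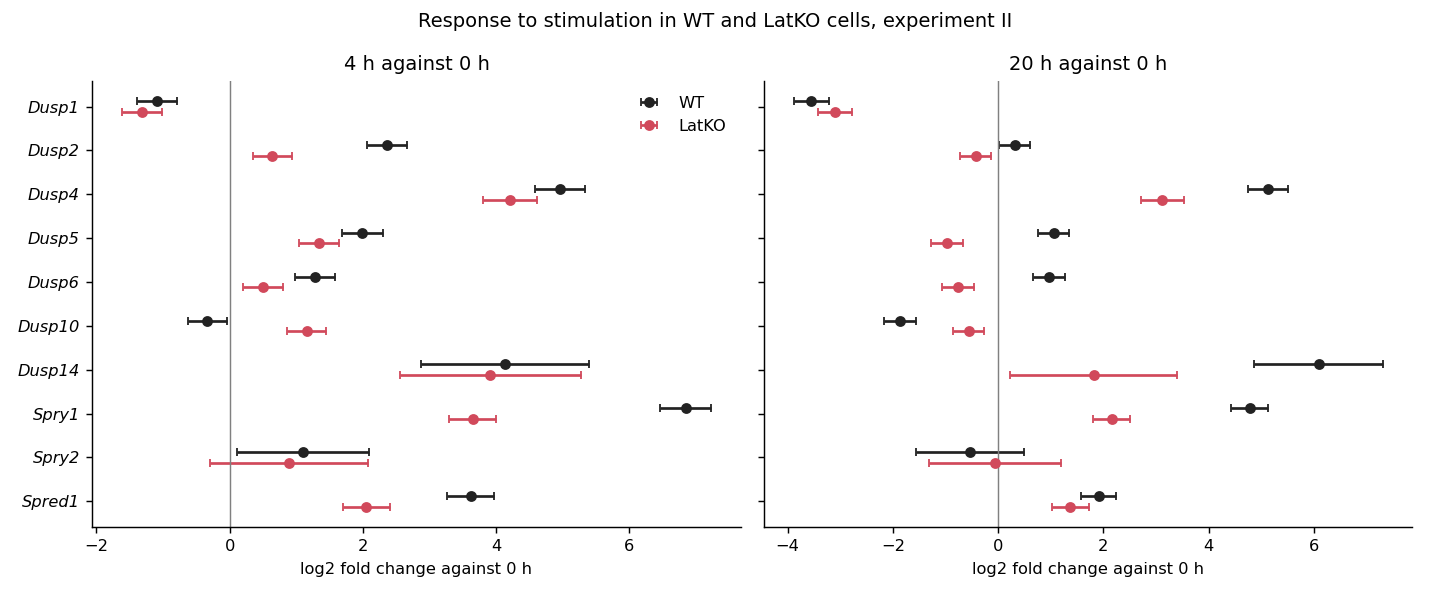
Log2 fold change against 0 h with its 95% confidence interval for each gene in the LAT experiment, at 4 h (left) and 20 h (right), in WT (black) and LatKO (red) cells. At 4 h Dusp10 lies on opposite sides of 0, at -0.33 in WT and 1.16 in LatKO cells, and at 20 h Dusp14, Dusp4, Dusp5, Dusp6 and Spry1 lie further left in LatKO cells.

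Dusp10 moved the other way. LatKO libraries held 117, 112 and 133 CPM at 0 h, 260, 302 and 244 CPM at 4 h and 74.9, 86.8 and 83.9 CPM at 20 h, above every WT library at each time. In LatKO cells it rose at 4 h with a log2 fold change of 1.16 (SE 0.151, edgeR adjusted p = 1.41e-12, stricter adjusted p = 3.08e-06), which was 0.99 without replicate 2. The LatKO mean was 3.41 times the WT mean at 4 h and 3.00 times at 20 h, with log2 differences of 1.77 (SE 0.154, edgeR adjusted p = 1.48e-28, stricter adjusted p = 1.32e-08) and 1.59 (SE 0.155, edgeR adjusted p = 2.91e-23, stricter adjusted p = 8.19e-09). The responses differed by 1.49 (SE 0.213, edgeR adjusted p = 1.62e-10, stricter adjusted p = 1.41e-05) at 4 h and by 1.31 (SE 0.214, edgeR adjusted p = 1.29e-08, stricter adjusted p = 1.19e-05) at 20 h.

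Dusp1 fell in LatKO as in WT libraries, from 168, 82.5 and 257 CPM at 0 h to 74.5, 55.2 and 74.3 CPM at 4 h and 18.6, 19.4 and 21.2 CPM at 20 h. Its difference from WT was -0.16 (SE 0.153, edgeR adjusted p = 0.592, stricter adjusted p = 0.7) at 4 h, and at 20 h, where the LatKO libraries lay just above the WT ones, 0.52 (SE 0.159, edgeR adjusted p = 0.00417, stricter adjusted p = 0.166). Dusp14 did not pass the test at 20 h against 0 h in LatKO cells (log2 fold change 1.82, SE 0.808, edgeR adjusted p = 0.162, stricter adjusted p = 0.078). Its reads there were 2, 1 and 1 at 0 h, 17, 13 and 29 at 4 h and 3, 4 and 9 at 20 h, so that the 4 h levels overlapped those of WT cells at 0.992 ± 0.449 CPM (n = 3) and the 20 h levels did not, at 0.226 ± 0.132 CPM (n = 3). From summed reads, the Dusp14 rate at 20 h was 20.7 times as high in WT as in LatKO cells (95% interval 12.6 to 36.7, counting error only), with a log2 difference of -4.34 (SE 0.536, edgeR adjusted p = 5.96e-15, stricter adjusted p = 1.75e-07). The 20 h response differed by -4.27 (SE 1.28, edgeR adjusted p = 0.0043, stricter adjusted p = 0.00371), which rests on 0 h counts of 1 to 3 and was -3.58 without replicate 1 (edgeR adjusted p = 0.105).

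Residual Lat reads and cell markers moved with genotype in these sorted cells. At 20 h, Spry1, Spred1, Dusp4, Dusp6 and Lat itself were all lowest in LatKO library 2 and highest in LatKO library 3, with Lat at 11.7, 9.91 and 17.2 CPM against 97.3, 105 and 92.2 CPM in WT. Dusp14 and Spry2 had this order from few reads. Dusp1, Dusp2, Dusp5 and Dusp10 did not have it, since all were lowest in LatKO library 1 and Dusp10 was highest in library 2. Spry1, Dusp4 and Dusp6 had the order of Lat at 0 and 4 h too. The 2 regulatory T cell markers, Foxp3 and Ikzf2, were detected in every library and summed to 60.6 to 91.1 CPM in WT and 19.5 to 34.8 CPM in LatKO at 0 h, 50.1 to 71.2 and 7.04 to 29.0 CPM at 4 h, and 34.5 to 36.9 and 4.53 to 10.6 CPM at 20 h. The 4 gamma delta T cell markers summed to 31.1 to 44.7 CPM in WT and 14.4 to 16.4 CPM in LatKO at 0 h, 15.6 to 22.4 and 6.50 to 10.3 CPM at 4 h, and 5.86 to 6.71 and 8.14 to 10.7 CPM at 20 h. The 2 CD8 T cell markers summed to 30.3 to 35.0 CPM in WT and 32.6 to 35.7 CPM in LatKO at 0 h, 16.9 to 22.0 and 24.6 to 29.4 CPM at 4 h, and 12.4 to 13.8 and 19.5 to 27.5 CPM at 20 h. The 6 T cell markers separated too, at 6152 to 6470 CPM in WT and 5252 to 5836 CPM in LatKO at 4 h and at 3035 to 3328 and 5036 to 5973 CPM at 20 h. The 7 myeloid markers, at 63.0 to 127 CPM, overlapped between genotypes at each time. The part of these cells and of remaining Lat in the differences was not tested.

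Loss of CD5, CD6 or both was examined next, as a test of whether these receptors change the set in resting or stimulated cells. At 4 h against 0 h, 7 genes were higher and 2 lower in CD5KO (19.5% of all genes called), 7 and 1 in CD6KO (18%) and 7 and 1 in dKO cells (17.2%), and at 20 h against 0 h 5 were higher and 3 lower in CD5KO (30%), in CD6KO (28.2%) and in dKO cells (30.3%). Between 4 and 20 h, 1 was higher and 5 lower in CD5KO (21.3%), and 1 higher and 6 lower in CD6KO (20.8%) and in dKO cells (21.4%). With library totals, the higher share of all genes called at 4 h went from 42.1% to 31.9% in CD5KO, from 43.0% to 32.9% in CD6KO and from 44.0% to 31.0% in dKO cells. Without the 0 h libraries labelled CD5KO 2 and CD6KO 2, Dusp6 was no longer called in CD6KO cells at 20 h (0.97 in place of 1.02). In CD5KO cells at 4 h, Dusp5 was no longer called (0.87 in place of 1.16) and Spry2 was (1.36 in place of 0.90, edgeR adjusted p = 0.000572), and the other calls of these genotypes against 0 h were kept. Spry1 had a log2 fold change of 6.90, 6.77, 6.55 and 6.42 at 4 h in WT, CD5KO, CD6KO and dKO cells, and Dusp4 one of 5.03, 4.99, 4.86 and 4.25. Without those 2 libraries Spry1 was at 7.06 and 6.42 and Dusp4 at 5.08 and 4.75 in CD5KO and CD6KO cells. Dusp2 stood at 1.97, 2.04, 1.66 and 1.85, and Spred1 at 3.31, 3.43, 3.25 and 3.11, while without the 2 libraries Dusp2 was at 2.03 and 1.86 and Spred1 at 3.30 and 3.31 in CD5KO and CD6KO cells. Dusp5 was called at 4 h in CD5KO and CD6KO cells, at 1.16 (0.80 without replicate 2 and 0.83 without replicate 3) and 1.36 (1.26 without the 2 libraries), and not in dKO cells at 0.97, where the block on replicate number gave 1.22 (edgeR adjusted p = 0.000353). Dusp1 fell by 20 h to log2 fold changes of -4.75, -4.83, -5.04 and -5.06 in the same order of genotypes, with -5.00 and -5.02 in CD5KO and CD6KO cells without the 2 libraries. The differences between these responses are tested next.

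**Figure D3:**
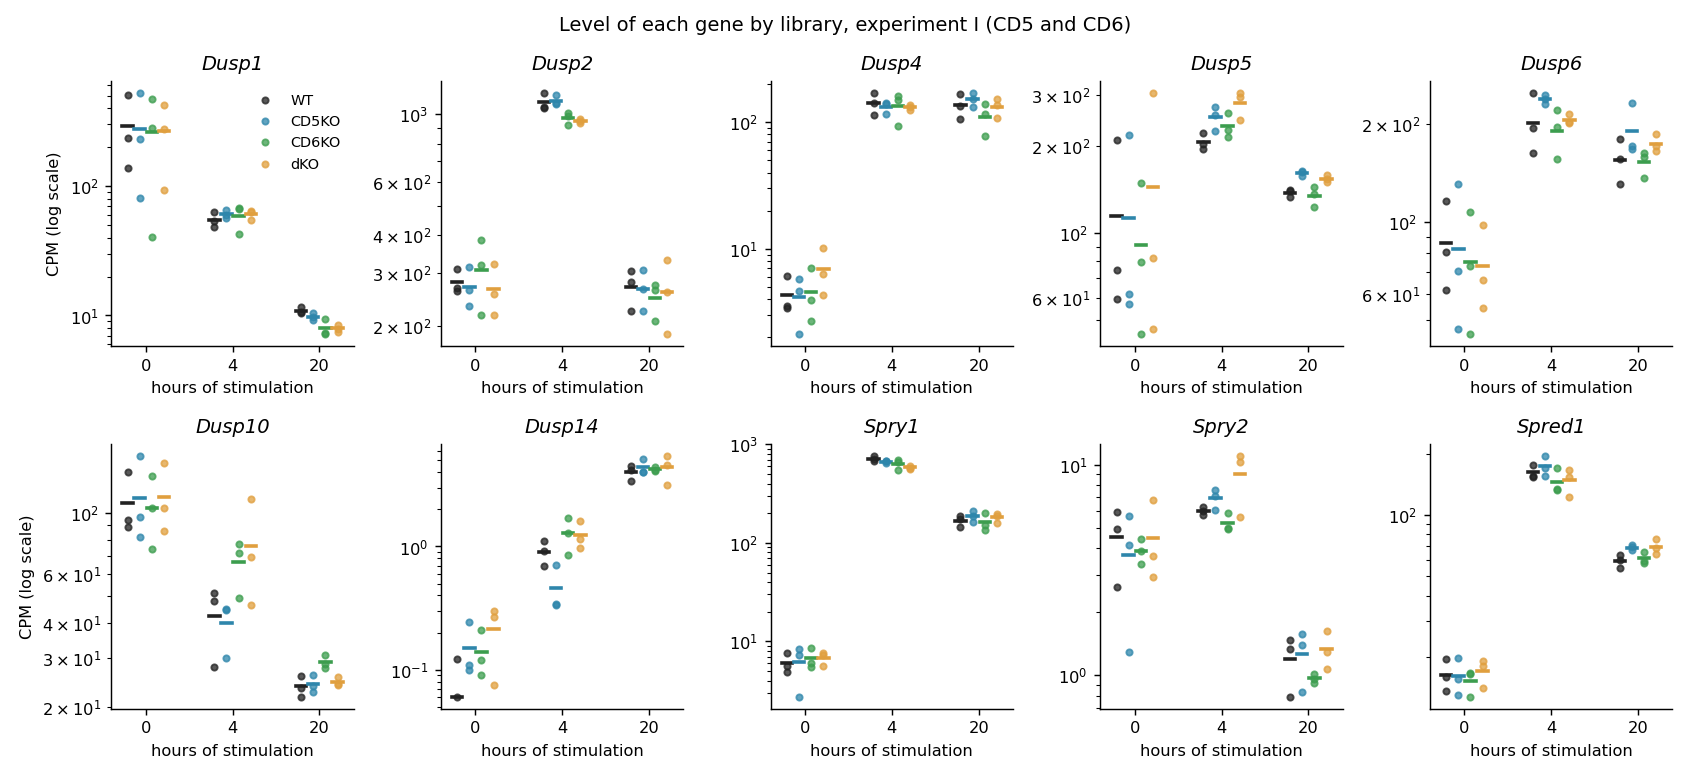
Level of each of the 10 genes in CPM (log axis) by hours of stimulation in the CD5/CD6 experiment. Each point is 1 library and short bars are means of 3, in WT (black), CD5KO (blue), CD6KO (green) and dKO (orange) cells; a WT library with 0 Dusp14 reads at 0 h cannot be drawn. At 0 h the libraries of each knockout overlap those of WT for all 10 genes, and those of Dusp1 and Dusp5 are spread widely in each genotype. At 4 and 20 h most genes overlap, and up to 3 in a knockout do not. None of these was called, and the share of all genes with such separation was not computed.

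Of the 17 comparisons between genotypes or between their responses, none called any of the 10 genes with edgeR without a block. Replicate numbers paired the samples in all comparisons of genotypes at 1 time, and with the number as a block edgeR called Dusp14 in dKO against CD5KO cells at 4 h (1.40, adjusted p = 0.0205) and none of the 10 in the other 16. For CD5KO against WT this held at 0, 4 and 20 h and for the 4 and 20 h responses (0.0619%, 0.0743%, 0.0186%, 0.0031% and 0.0031% of all genes were called), with 0, 1, 0, 1 and 0 of the 10 genes at an unadjusted p under 0.05. For CD6KO the shares of all genes were 0%, 0.0031%, 0.0186%, 0% and 0.0031%, with 0, 1, 0, 1 and 0 of the 10 at an unadjusted p under 0.05. For dKO they were 0.0248%, 0.0434%, 0.0434%, 0% and 0%, with 2, 1, 0, 2 and 2. In dKO against CD5KO cells 0.579% of all genes were called at 4 h and 0.0279% at 20 h, with 2 and 0 of the 10 at an unadjusted p under 0.05. DESeq2 called none of the 10 in 16 of the 17 comparisons and Dusp14 in 1, dKO against CD5KO at 4 h. Leaving out the 0 h libraries labelled CD5KO 2 and CD6KO 2 gave 0 members called as well in the 6 comparisons that use them. In 4 of the 6 comparisons the genes at an unadjusted p under 0.05 were then as before (Dusp10 in the CD6KO 4 h response and none in the others), while for CD5KO against WT there was 1 at 0 h and 1 for the 4 h response, Spry2 both times, in place of none and Dusp14.

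The size of each difference was read from its interval in the main fit and in the stricter fit. Over the 8 genes with a mean of at least 5 CPM in both experiments, the 95% intervals of the log2 difference from WT at 4 h ran from -0.59 to 0.93 in CD5KO, from -0.63 to 1.08 in CD6KO and from -0.68 to 1.27 in dKO cells. At 0 h the lowest and highest bounds were -0.80 and 0.65 in CD5KO, -0.98 and 0.60 in CD6KO and -0.88 and 1.17 in dKO cells, and at 20 h -0.92 and 0.89, -1.21 and 0.73, and -1.22 and 0.82. In this fit the intervals of all 8 genes lay within a fold of 2 in CD5KO cells at 0, 4 and 20 h and in CD6KO cells at 0 h, and those of 6 or 7 genes in the other 5 comparisons. In the stricter fit only 5 or 6 of the 8 lay within it in each of the 9 comparisons, and in CD5KO cells the bounds reached -1.22 (Dusp1) at 0 h, 1.299 (Dusp5) at 4 h and -1.34 (Dusp1) at 20 h. Without the 0 h libraries labelled CD5KO 2 and CD6KO 2 the 0 h bounds were -0.68 and 0.77 in CD5KO and -0.81 and 0.66 in CD6KO cells.

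**Figure D4:**
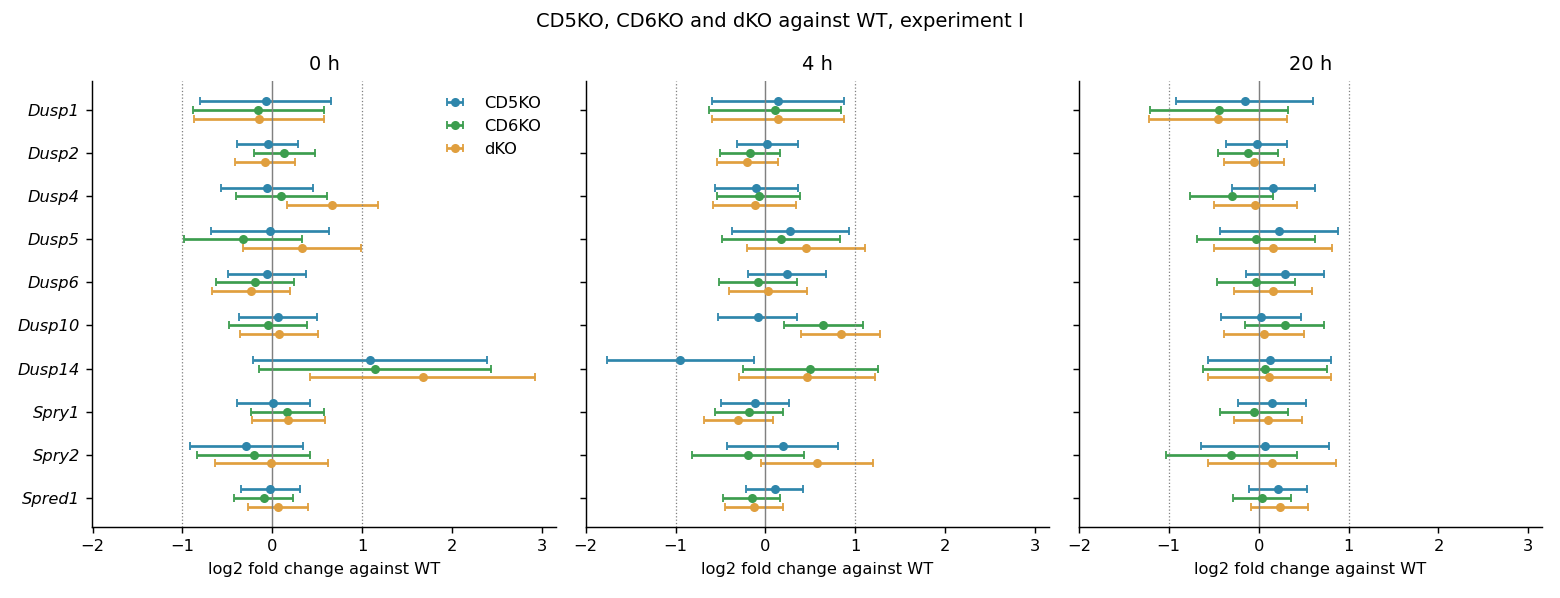
Log2 fold change against WT with its 95% confidence interval for each gene in CD5KO (blue), CD6KO (green) and dKO (orange) cells at 0, 4 and 20 h. Dotted lines mark a fold of 2. The intervals of Dusp14 are the widest at 0 h, and the highest 4 h value among the 8 better measured genes is Dusp10 in dKO cells, at 0.84.

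Dusp10 had the highest 4 h difference from WT among these 8 genes. WT libraries held 28.0, 48.0 and 51.2 CPM, CD5KO 30.1, 45.1 and 44.7 CPM, CD6KO 49.5, 71.8 and 77.3 CPM and dKO 46.6, 69.1 and 111 CPM. Library 1 was lowest in each genotype, and the WT range overlapped that of CD6KO and dKO, but within each of the 3 replicate numbers the CD6KO and dKO libraries were above the WT library. The log2 difference from WT was 0.64 (SE 0.220, edgeR adjusted p = 1) in CD6KO and 0.84 (SE 0.220, edgeR adjusted p = 0.313) in dKO cells, and with replicate number as a block the adjusted p of edgeR was 0.389 and 0.0757. Between dKO and CD5KO cells it was 0.92 (SE 0.221, edgeR adjusted p = 0.0193), under the fold of 2, and it was not past the test in the stricter fit (adjusted p = 0.215) or by DESeq2 (adjusted p = 0.0997). With replicate number as a block it was 0.92 (edgeR adjusted p = 0.00417), and it passed the fold of 2 without replicate 1 (1.01) and without replicate 2 (1.04).

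Spry1 at 4 h was at 767, 717 and 675 CPM in WT, 671, 672 and 645 CPM in CD5KO, 688, 663 and 554 CPM in CD6KO and 569, 581 and 603 CPM in dKO libraries. The CD5KO and dKO libraries lay below all WT libraries, at log2 differences of -0.12 (SE 0.190) and -0.30 (SE 0.190), neither past the test. Libraries apart from WT also occurred at 4 h for Dusp5 in CD5KO and dKO and for Dusp2 in CD6KO and dKO cells. At 20 h they occurred for Dusp1 in each knockout, for Dusp5 and Spred1 in CD5KO and dKO, and for Dusp10 in CD6KO cells. None of these was called, and the share of all genes with such separation was not computed. Dusp14 at 4 h was at 0.908 ± 0.202 CPM in WT, 0.460 ± 0.211 CPM in CD5KO and 1.24 ± 0.328 CPM in dKO cells (n = 3). Its log2 difference between dKO and CD5KO cells was 1.41 (SE 0.405, edgeR adjusted p = 0.077), and it passed with replicate number as a block (1.40, edgeR adjusted p = 0.0205) and with DESeq2 (adjusted p = 0.0269). Dusp4 at 0 h was at 6.12, 3.55 and 3.39 CPM in WT and 10.1, 6.32 and 4.30 CPM in dKO libraries, which overlapped, with a log2 difference of 0.67 (SE 0.253, edgeR adjusted p = 1).

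Cell markers moved with genotype in the CD5/CD6 experiment as well. The 4 gamma delta T cell markers summed to 35.1 to 37.9 CPM in WT, 37.4 to 101 CPM in CD5KO, 31.7 to 88.3 CPM in CD6KO and 82.7 to 125 CPM in dKO at 0 h. The 0 h ranges of CD5KO and CD6KO include the 2 libraries that went against their labels, and ranges without them are not given here. At 4 h they summed to 20.7 to 22.5 CPM in WT and 16.2 to 30.1 CPM in CD6KO against 56.9 to 62.0 CPM in CD5KO and 61.8 to 86.2 CPM in dKO. At 20 h the sums were 4.50 to 6.60 and 3.98 to 6.58 CPM against 12.1 to 13.8 and 12.6 to 19.9 CPM. The 2 regulatory T cell markers were at 23.4 to 35.3 CPM in WT and 41.5 to 66.4 CPM in dKO at 4 h, and the 6 B cell markers at 62.0 to 196 CPM in WT and 36.2 to 49.3 CPM in CD5KO. The regulatory T cell markers overlapped at 0 h, at 32.8 to 41.5 CPM in WT and 35.4 to 65.6 CPM in dKO. They overlapped at 20 h too, at 8.60 to 23.3 and 5.89 to 10.2 CPM, with the lower mean in dKO. The part of these cells in the values of the 10 genes was not tested.

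Other genes of the pathway were counted from lists of family members. Of 12 ERK response genes, 8 rose and 1 fell in experiment II WT cells at 4 h (8.05% of all genes higher and 9.29% lower), and 7 rose and 1 fell in LatKO cells (3.08% and 3.62%). Compared with WT cells, 7 were lower in LatKO cells at 4 h (6.23% of all genes lower) and 9 at 20 h (12.3%), and none was higher, with 2 lower already at 0 h (0.814%). The response itself differed for fewer of the 12, with 1 higher and 2 lower at 4 h (4.37% of all genes higher and 4.34% lower) and 3 lower at 20 h (9.35%). The list's median log2 difference from WT was -1.65 at 4 h and -2.38 at 20 h, against 0 over all genes. Egr1, a zinc finger transcription factor, was at 113 ± 24.9, 1556 ± 76.2 and 213 ± 24.7 CPM in WT and 34.5 ± 19.8, 289 ± 48.9 and 50.8 ± 23.3 CPM in LatKO cells at 0, 4 and 20 h (n = 3). Its relative Egr3 was at 1080.4 ± 123 CPM in WT and 181 ± 46.8 CPM in LatKO cells at 4 h (n = 3). Ier2 was at 805 ± 73.2 and 331 ± 29.6 CPM.

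The kinases themselves were counted next. Of 11 genes of ERK cascade kinases and scaffolds, 1 was lower at 4 h in experiment II WT cells (9.29% of all genes lower). In LatKO against WT cells 1 was higher and 1 lower at 4 h (5.51% and 6.23% of all genes) and again at 20 h (12.1% and 12.3%), shares close to those of all genes. Map2k2 and Shoc2, a kinase of ERK and a scaffold of RAF activation, differed by 0.14 and 0.16 on the log2 scale at 4 h without being called. Of 11 genes of JNK and p38 kinases, 4 rose and 2 fell in WT cells at 4 h (8.05% and 9.29% of all genes), and 1 was higher and 3 lower in LatKO than in WT cells at that time (5.51% and 6.23%). Map2k3, a kinase that activates p38, was at 51.4 ± 8.25 CPM at 0 h and 1648 ± 342 CPM at 4 h in WT cells and at 178 ± 8.90 CPM at 4 h in LatKO cells (n = 3), a log2 difference of -3.21 (SE 0.160, edgeR adjusted p = 2.22e-86, stricter adjusted p = 2.29e-09). Mapk14 and Map2k4 differed by 0.42 and 0.19 on the log2 scale at 4 h.

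Of 11 RAS proteins and regulators, 3 rose in WT cells at 4 h (8.05% of all genes), 2 in LatKO cells (3.08%), and 5 were higher and 1 lower in LatKO than in WT cells at 20 h (12.1% and 12.3%). Rasa3, a GTPase activator of RAS, was at 599 ± 78.8, 405 ± 135 and 58.5 ± 3.43 CPM in WT and 632 ± 26.6, 1068 ± 119 and 926 ± 143 CPM in LatKO cells at 0, 4 and 20 h (n = 3), a log2 difference of 3.99 (SE 0.165) at 20 h (edgeR adjusted p = 8.24e-126, stricter adjusted p = 1.83e-11). Rasgrp1, a RAS exchange factor, was higher by 1.99 on the log2 scale at that time. Of the 4 other typical MAP kinase phosphatases, 3 rose and 1 fell in WT cells at 4 h (8.05% and 9.29% of all genes), and Dusp16, a phosphatase of JNK, was at 35.4 ± 8.92 CPM in WT and 52.2 ± 29.1 CPM in LatKO cells at 4 h (n = 3), from 2.93 and 3.20 CPM at 0 h. Dusp8 rose from 0.166 and 0.284 CPM to 5.43 ± 2.65 and 12.3 ± 10.1 CPM (n = 3), and Dusp7 fell by 1.40 on the log2 scale in WT cells (SE 0.159, edgeR adjusted p = 2.63e-17, stricter adjusted p = 4.79e-08). Of 14 atypical phosphatases, 11 had reads in the LAT experiment, 2 rose and 3 fell in WT cells at 4 h (8.05% and 9.29% of all genes), and 3 were higher and 3 lower in LatKO than in WT cells at 20 h (12.1% and 12.3%), among them Dusp11 and Dusp28, higher by 1.17 and 1.21 on the log2 scale. Dusp12 differed by -0.69 and was not called. Of the 3 other Sprouty and Spred genes found in the tables (Spry3 was not matched), Spry4 rose in WT cells at 4 h, to 3.82 ± 0.670 CPM against 2.04 ± 0.328 CPM in LatKO cells (n = 3), and Spred2 was at 55.2 ± 14.2 and 43.0 ± 6.13 CPM, while Spred3 had at most 9 reads in a library. No gene of these lists was called in the comparisons between genotypes of the CD5/CD6 experiment.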

How the data were processed

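RNA sequencing of mouse naive CD4+ T cells covered 54 samples in 2 experiments, which were never fitted together. According to the study's methods, the authors prepared stranded mRNA libraries, sequenced single-end reads, trimmed adapters and left out reads of low quality, aligned the rest with STAR to GRCm38 (mm10) and counted them per gene with featureCounts. The submitters' processing notes also name bcl2fastq 2.17.1.14 and DESeq2. The annotation release, the strand setting and the handling of multi-mapping reads are not given in the sources used here. The deposited values are whole read counts per gene, of which 0 columns were left out, and 55144 of 55385 gene IDs could be named.

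Samples were grouped by GEO's labels. Counts were tested with edgeR 4.0.16 (quasi-likelihood, TMM scaling, R 4.3.3) over all samples of an experiment and all genes with at least 1 read in total, with p-values adjusted by Benjamini-Hochberg. A gene was called at a fold above 2 and an adjusted p below 0.05. The median prior degrees of freedom were infinite in the LAT and 50.9 in the CD5/CD6 experiment, and 6.46 and 4.73 after filterByExpr. CPM values are TMM-scaled. The steps were tested on simulated data. A count of 3, the floor of detection, was worth 0.105 to 0.169 CPM in the LAT and 0.0663 to 0.146 CPM in the CD5/CD6 experiment, and intervals from counts cover counting error only. No libraries of a group agreed within sampling noise (chi-square per degree of freedom of at least 3.02).

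Alternatives were library totals, RLE factors, filterByExpr, adjusted p alone, DESeq2 1.42.0, the compared groups alone, a replicate block, leaving out each replicate, and leaving out the 2 libraries that went against their labels. Replicate numbers were taken to pair samples where every pair's deviations correlated above 0.1. This held in the CD5/CD6 experiment for WT and CD5KO responses, dKO responses at 4 h against 0 h and 20 h against 4 h, and comparisons of genotypes at 1 time, and in the LAT experiment at 0 h between genotypes only. All 10 members were named, with pathway genes from lists of ERK response genes, ERK cascade kinases and scaffolds, JNK and p38 kinases, RAS proteins and regulators, and other Sprouty, Spred and dual-specificity phosphatase genes. The members and lists were chosen with earlier results of these data known.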

Additional observations from a re-analysis of the deposited data

Results flagged for a closer look

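In 10 cases the response to stimulation in LatKO cells differed from that in WT cells by a test of the difference itself (edgeR, interaction of genotype and time). At 4 h the log2 response was lower in LatKO cells for Spry1 (-3.20), Dusp2 (-1.72) and Spred1 (-1.56) and higher for Dusp10 (1.49). At 20 h it was lower for Dusp14 (-4.27), Spry1 (-2.62), Dusp5 (-2.02), Dusp4 (-2.01) and Dusp6 (-1.74) and higher for Dusp10 (1.31). All 10 were also called in the fit that left out genes of low count first.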

How the results depend on the processing

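Alternatives were summarized for 145 pairs of a member and a comparison. These were all pairs of the LAT experiment, those of the WT responses in experiment I and a few chosen dKO values. Nearly all CD5KO, CD6KO and dKO values are thus outside this count. Of the 1450 values recomputed for these pairs, 1359 kept their direction and their side of the threshold, 25 fell below it, 51 passed it and 15 changed sign. None of the 15 was among values called in the main fit. The alternative of adjusted p alone keeps the main log2 fold change, so there the direction could not change. With the adjusted p alone in place of the added fold of 2, more genes were called: 8 members in place of 4 for LatKO at 20 h against 0 h, 5 in place of 2 for LatKO against WT at 0 h, 7 in place of 4 for the difference of the 4 h response between LatKO and WT, and 1 in place of 0 for dKO against CD5KO at 4 h. The same change called 36 pathway list genes for WT at 20 h, 35 and 19 for LatKO at 4 and 20 h, and 34 and 44 for LatKO against WT at 4 and 20 h, by construction of the wider rule. The shares of all genes called under the wider rule are not given here. Its counts are therefore not read as a result about the members or the lists. For LatKO against WT at 0 h, 0 members were called with filterByExpr and with DESeq2, and 1 to 3 when a replicate was left out, with Spry1 at -0.80 without replicate 2. For dKO against CD5KO at 4 h, 1 member was called with the replicate block and with DESeq2 (Dusp14), and 0 to 1 when a replicate was left out (Dusp10). The difference of the 4 h response between dKO and WT gave 0 to 1 (Dusp4 at -1.05 without replicate 3). The cause was not tested.

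The block on replicate number also called Dusp6 at 20 h in experiment II WT cells (1.02) and Spry2 at 4 h (1.19, edgeR adjusted p = 0.0411), where the numbers did not pair the samples, besides the values given in the text. Among the summarized pairs, signs changed with library totals for Dusp4 at 20 h against 4 h in experiment I WT cells (0.037), and when a replicate was left out that value ran from -0.25 to 0.084. The other ranges that crossed 0 were -1.07 to 0.45 for Spry2 in WT and -0.94 to 0.22 in LatKO cells at 20 h, -0.070 to 0.16 for Dusp1 and -0.74 to 0.76 for Dusp14 in LatKO against WT at 0 h, -1.08 to 0.48 for Dusp14 and -1.22 to 0.28 for Spry2 in the difference of 4 h responses, -0.24 to 0.86 for Spry2 and -1.02 to 0.010 for Spred1 in that of 20 h responses, and, in experiment I WT cells at 20 h, -0.17 to 0.033 for Dusp2 and -0.063 to 1.03 for Dusp5. Depth limits Dusp14 at 0 h and in LatKO cells at 20 h, and Spry2 in LatKO cells, since their reads per library are few.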

Other observations

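Over the means of the 18 conditions of both experiments, the gene among 9003 whose level ran most like that of a member was Ppp1r15a for Dusp1 (Pearson r = 0.991), Hectd2 for Dusp2 (0.976), Ncs1 for Dusp4 (0.997), Siah2 for Dusp5 (0.976), Leo1 for Dusp6 (0.972), Ifngr2 for Dusp10 (0.983), Bcl2a1b for Spry1 (0.997) and Hivep3 for Spred1 (0.993). These are descriptions over log2 CPM with a pseudocount of 0.25, given without a p, and the conditions share time points, scaling and libraries of common depth. Among the members, Spry1 ran most like Spred1 (r = 0.989) and next like Dusp4 (0.961), while Dusp1 and Dusp4 ran in opposite directions (-0.727).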
